A study of Pan troglodytes with 217 samples.

Results

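Transcripts of 10 genes of cell adhesion and of the epithelial to mesenchymal transition were followed through single cells of chimpanzee blastoids. They are the classical cadherins CDH1, CDH2 and CDH3, the adhesion molecule EPCAM, CTNNB1, which encodes β-catenin, the mesenchymal genes VIM and FN1, and the transcription factors SNAI1, SNAI2 and ZEB2. The genes were chosen by name, with earlier results of these data known. Each of the 10 symbols matched 1 of the 33729 Ensembl gene identifiers of the count table. Their levels were described in the cells with at least 8000 detected genes, 50, 32, 60 and 51 cells of 4 clusters, and 24 further cells of the deposited table fell short of this and were left out.

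Classical cadherins are transmembrane proteins that bind their like on a neighbouring cell and are held to the actin cytoskeleton through catenins. In an epithelium E-cadherin, the product of CDH1, forms the adherens junctions, and it is best known in the early embryo for compaction and for the trophectoderm. When cells leave an epithelium, factors of the SNAI and ZEB families bind and repress CDH1, while N-cadherin, vimentin and fibronectin typically come up, and gastrulation is the textbook case. Fibronectin is also laid down by endoderm that is itself epithelial, and β-catenin serves both at the junction and in the nucleus as the coactivator of WNT signaling.

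Blastoids are blastocyst-like structures made in culture, here from chimpanzee naive pluripotent stem cells (naive PSCs) and collected on day 4. The naive PSCs were grown in PXGL-A6E, that is N2B27 with PD032590, XAV939, Gö6983, LIF, activin A, IL-6 and the EZH2 inhibitor EPZ-6438, and aggregates then passed through PALY (PD032590, A83-01, LPA and Y-27632), ALY without PD032590, and N2B27 alone. Mural trophectoderm was cut away with needles and dissociated apart from the inner cells with polar trophectoderm, and a SMART-seq2 library of full-length cDNA, without molecular identifiers, was made from each cell. All cells share this 1 condition, and no label ties a cell to a blastoid, a cell line, a plate or the mural piece, so the cells form 1 sample without replicates. No test was therefore computed, and p-values are absent throughout.

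Leiden clustering gave 4 clusters, which were named from 10 markers each of epiblast, hypoblast and trophectoderm. There were 50 epiblast-like cells and 32 hypoblast-like cells. The trophectoderm-like cells comprised a cluster of 60 with little CCR7 (5.71 CPM) and a cluster of 51 with much CCR7 (315 CPM), called CCR7-low and CCR7-high. NANOG stood at 244 CPM in epiblast-like cells, GATA4 at 92.2 CPM in hypoblast-like cells and GATA3 at 691 CPM in trophectoderm-like cells. Of the 32 hypoblast-like cells, 25 had at least 3 hypoblast markers at 10 CPM, whereas every cell of the other clusters had 3 of its own. KLF17, a marker of naive epiblast, was near 0 even in the epiblast-like cells, at 1.48 CPM. The names were not exclusive, since 59 cells had at least 3 trophectoderm markers together with at least 3 epiblast or hypoblast markers at 10 CPM or more. They comprised 25 epiblast-like, 21 hypoblast-like, 5 CCR7-low and 8 CCR7-high cells, and no doublet caller was run. Totals lay between 1679888 and 25630392 reads per cell, and the medians of the 4 clusters between 3693058 and 4516217.

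Levels are in CPM, counts per 1000000 reads on genes, either of a class, from the reads of all its cells added up, with the exact 95% Poisson interval, or of single cells. CPM are not corrected for transcript length, so the levels of different genes are not compared. The interval covers counting error only, since copies of 1 cDNA are counted more than once, and it says nothing of the spread between blastoids. The order of classes is qualified by the spread over cells, and neighbours are said to overlap where the median cell of each lies within the middle 50% of the other. All members other than SNAI2 and ZEB2, which were read in too few cells, also entered the clustering, so differences between classes describe those classes. Clustering without the members and the listed genes of adhesion and transition put 0 cells in another class and 12 in the other trophectoderm-like cluster.

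CDH1, EPCAM and CTNNB1 had at least 10 CPM in every cell. SNAI1 lacked a read in 34 cells, FN1 in 36 and CDH3 in 65, whereas CDH2 was found in only 53 cells, VIM in 21, ZEB2 in 10 and SNAI2 in 2. The epithelial genes were thus present in every cell, and the mesenchymal genes apart from SNAI1 and FN1 in a minority.

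**Figure D1:**
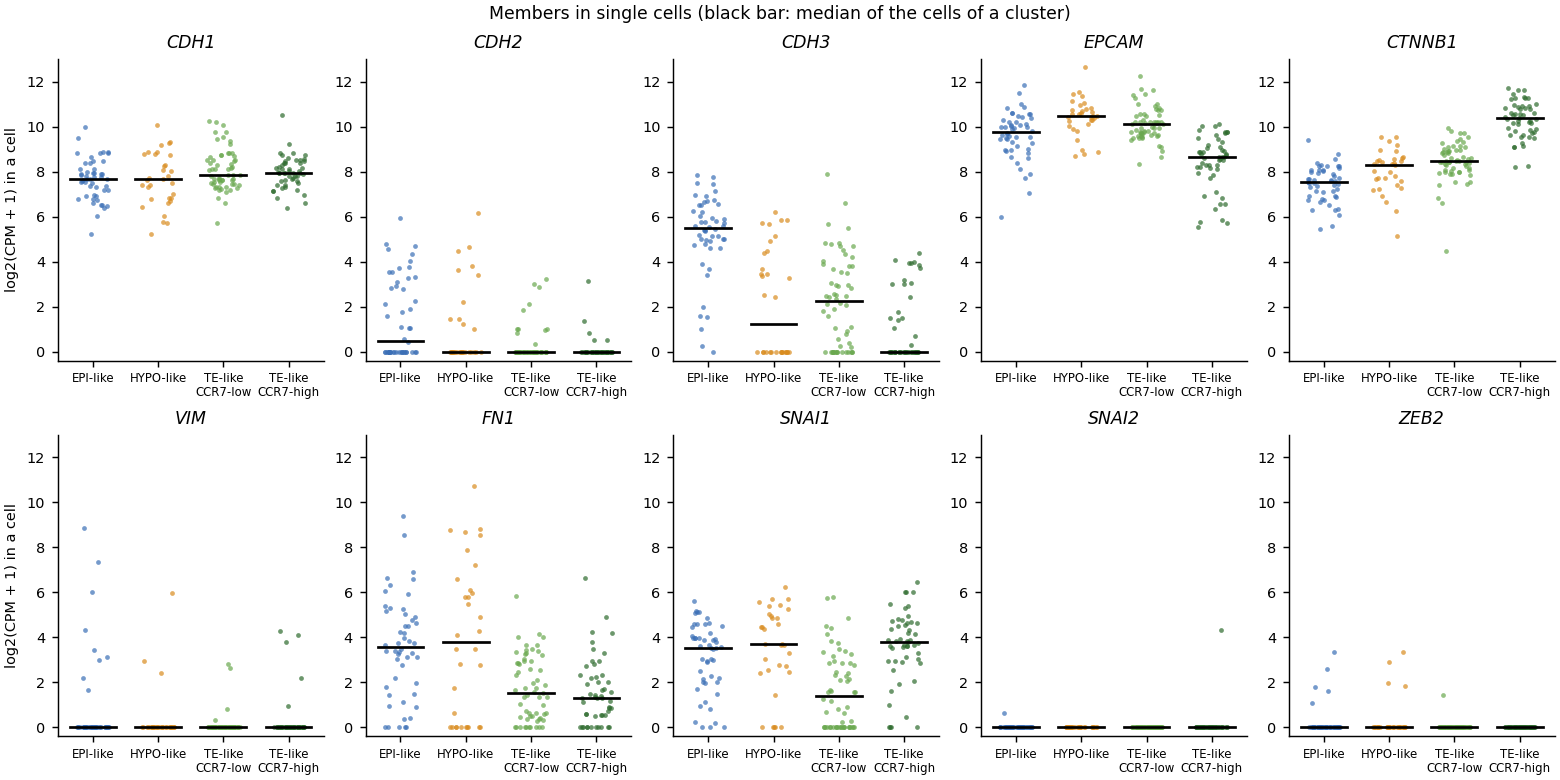
Level of each member in single cells, as log2(CPM + 1) on the vertical axis, for 50 epiblast-like (EPI-like), 32 hypoblast-like (HYPO-like), 60 CCR7-low and 51 CCR7-high trophectoderm-like (TE-like) cells; a point is a cell and a black bar the median. CDH1, EPCAM and CTNNB1 are above 0 in all cells, while SNAI2 and ZEB2 lie above 0 in 2 and 10 cells.

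Classes were compared by a fixed rule of size. A gene was called higher or lower where its summed CPM differed at least 2-fold and reached 10 CPM in the higher class, and a gene at 10 CPM in either class counts as assessed. In hypoblast-like over epiblast-like cells 7 members were assessed, of which FN1 was higher and CDH3 and VIM were lower. Over all 8319 identifiers assessed there, 5.67% were higher and 11.1% lower. In trophectoderm-like over epiblast-like cells CTNNB1 was higher and CDH3, VIM and FN1 were lower, again of 7 assessed, against 9.95% higher and 17.3% lower of 8503 identifiers. In hypoblast-like over trophectoderm-like cells, with 6 members assessed, FN1 and CDH3 were higher and CTNNB1 lower, against 11.2% and 9.91% of 8106. Between the trophectoderm-like clusters, CCR7-high over CCR7-low, CTNNB1 and SNAI1 were higher and EPCAM and CDH3 lower among 5 assessed, against 7.07% and 5.08% of 7853. The members were chosen with their levels in these cells known, and their counts are set beside these percentages as a description.

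**Figure D2:**
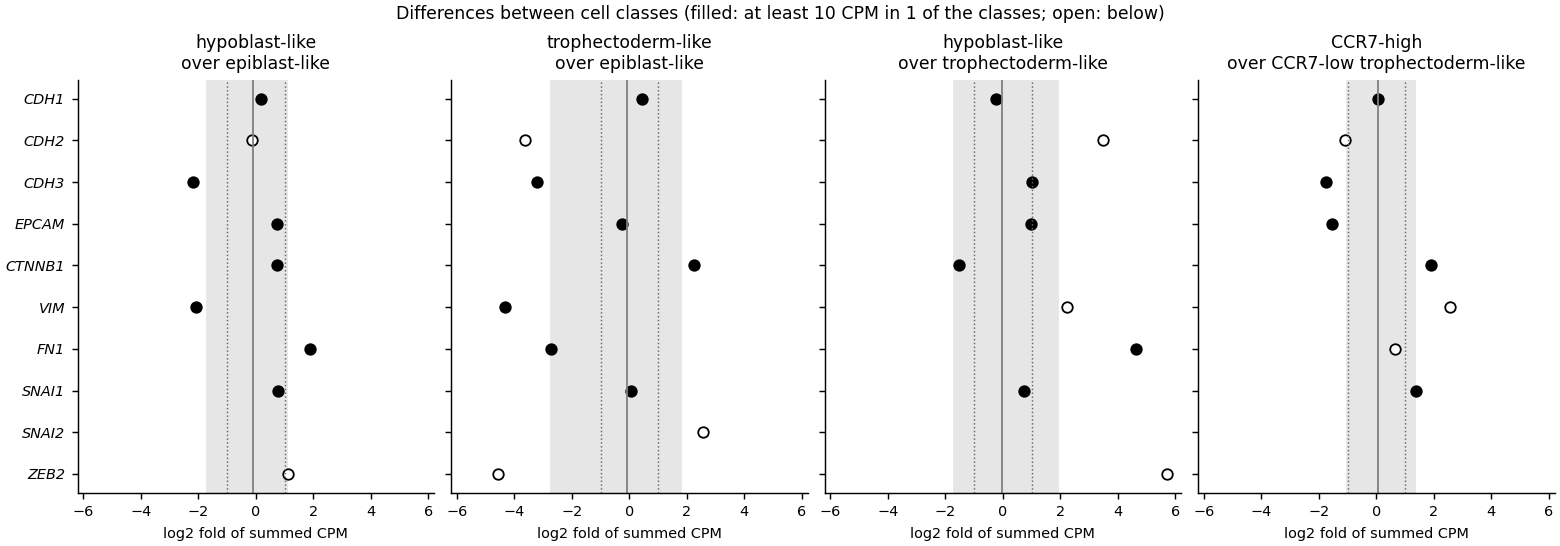
Log2 fold of summed CPM for each member (rows) in 4 comparisons of classes; filled circles are members at 10 CPM or more in 1 of the classes, open circles those below, dotted lines mark 2-fold, the grey line is the median and the grey band the 5th to 95th percentile of all assessed identifiers, and no circle is drawn where a class has no read. FN1 in hypoblast-like over trophectoderm-like cells lies farthest out of the filled circles, at 4.63, and CDH1 stays inside the dotted lines in all 4 panels.

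E-cadherin transcripts (CDH1, ENSPTRG00000008270) were at a like level in all classes. In epiblast-like cells CDH1 ranged from 36.8 to 1013 CPM per cell with a median of 204.7, and in hypoblast-like cells from 36.4 to 1079 with a median of 200. Trophectoderm-like cells ranged from 51.9 to 1465 with a median of 244. All 3 ranges overlapped almost entirely. Summed levels were 232.1 CPM (230 to 234) in epiblast-like, 265 (262 to 268) in hypoblast-like, 309 (307 to 311) in CCR7-low and 317 (315 to 320) in CCR7-high cells. Every pair of neighbours in this order overlapped in the spread over cells, and no difference reached 2-fold. A single cell held 20.2% of the CDH1 reads of the CCR7-high cluster, and without it the level was 265 CPM.

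P-cadherin (CDH3, ENSPTRG00000008269), a classical cadherin of basal epithelia and placenta, was the only 1 of the 3 member cadherins called in a comparison. Epiblast-like cells had from 0 to 226.03 CPM with a median of 44.7, and 43 of 50 reached 10 CPM. In hypoblast-like cells the range was 0 to 72.2 with a median of 2.19, and 16 of 32 cells had no read. CCR7-low cells ranged from 0 to 235 CPM with a median of 3.75, and CCR7-high cells from 0 to 19.7 with a median of 0. Epiblast-like cells were thus high with few exceptions, but the ranges overlapped, and 1 CCR7-low cell had the highest level of all.

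The summed level of CDH3 was 61.4 CPM (60.3 to 62.4) in epiblast-like, 13.5 (12.9 to 14.2) in hypoblast-like and 6.68 (6.46 to 6.91) in trophectoderm-like cells. It was 4.54-fold lower in hypoblast-like and 9.19-fold lower in trophectoderm-like than in epiblast-like cells, and both calls were kept under all 17 alternatives. Of these, a fold of 1.5, a minimum of 1 CPM and no minimum only loosen the rule and could lose no call. A resolution of 0.5, 15 neighbours and clustering without the listed genes put 0 cells in another class, so they gave the same values. The 2.03-fold difference between hypoblast-like and trophectoderm-like cells was not kept, falling to 1.36 without the cells of mixed markers and to 1.5 at equal depth, and these neighbours overlapped in their spread. CCR7-low cells had 10.1 CPM (9.76 to 10.5) and CCR7-high cells 3.01 (2.80 to 3.23), a 3.37-fold difference whose upper level lies at the 10 CPM minimum and whose call was lost through that minimum when the highest cell of each class was left out, though the difference was then still 2.85-fold. The highest CCR7-low cell alone held 28.7% of the reads. Of 32 hypoblast-like cells, 19 had at least 3 epiblast markers at 10 CPM, and within this class CDH3 ran opposite to the mean standardized level of 10 hypoblast markers (Spearman −0.57, n = 32 cells of 1 sample). The part of mixed cells in the hypoblast-like level of CDH3 was not tested beyond these values.

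N-cadherin (CDH2, ENSPTRG00000009939), the cadherin of mesoderm and neural tissue, was low in all classes. A read was found in 26 of 50 epiblast-like cells (52%, exact Clopper-Pearson interval 37.4% to 66.3%) and 11 of 32 hypoblast-like cells (34.4%, 18.6% to 53.2%). In trophectoderm-like cells it was found in 16 cells (14.4%, 8.47% to 22.4%). The highest cells reached 59.8, 69.5 and 8.29 CPM in these classes, and the median cell had 0.407, 0 and 0. Summed levels of 5.27 CPM (4.97 to 5.59), 4.76 (4.39 to 5.15) and 0.422 (0.368 to 0.482) all lay under the 10 CPM minimum, so CDH2 was not assessed, and the lower level in trophectoderm-like cells is given as a value. A single hypoblast-like cell held 50.8% of the CDH2 reads of its class.

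CDH2 reached 10 CPM in 15 cells, 10 of them epiblast-like and 5 hypoblast-like. In 8 epiblast-like cells CDH2 and CDH3 were both at 10 CPM, and in no hypoblast-like cell were they. The difference log2(CDH2 CPM + 1) minus log2(CDH1 CPM + 1), which in a cell without CDH2 reads is set by CDH1 alone, had a median of −6.92 (SD 2.17 over cells) in epiblast-like, −6.93 (SD 2.59) in hypoblast-like and −7.81 (SD 0.984) in trophectoderm-like cells. These medians lay within 1 SD of each other. For CDH3 minus CDH1 the medians were −2.29 (SD 1.79), −5.61 (SD 2.34) and −6.66 (SD 1.91), so that epiblast-like cells stood apart from both others by more than the SD over cells, though these medians too depend on the pseudocount.

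EPCAM (ENSPTRG00000011902), a homophilic adhesion molecule of epithelia and pluripotent cells, was abundant everywhere and split the trophectoderm. Epiblast-like cells ranged from 62.4 to 3630 CPM with a median of 858, and hypoblast-like cells from 414 to 6339 with a median of 1416. CCR7-low cells ranged from 326 to 4810 with a median of 1101, while CCR7-high cells ranged from 45.4 to 1124 with a median of 396. Of 51 CCR7-high cells, 50 lay below the CCR7-low median, 20 lay below the lowest CCR7-low cell, and 28 of 60 CCR7-low cells lay above the highest CCR7-high cell. Summed levels were 1618 CPM (1611 to 1625) in hypoblast-like, 1196 (1192 to 1200) in CCR7-low, 972 (967 to 976) in epiblast-like and 410 (407 to 412) in CCR7-high cells. The first 3 overlapped with their neighbours in this order, and CCR7-high cells did not. EPCAM was 2.92-fold lower in CCR7-high than in CCR7-low cells, and 3.34-fold lower between the corresponding 39 and 72 cells clustered without the listed genes. The hypoblast-like level was 1.99-fold that of trophectoderm-like cells, just under the rule.

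β-catenin transcripts (CTNNB1, ENSPTRG00000023062) showed the opposite order within the trophectoderm. In epiblast-like cells CTNNB1 ranged from 42.8 to 667 CPM with a median of 187.3, in hypoblast-like cells from 34.4 to 752 with a median of 317, and in CCR7-low cells from 21.4 to 990 with a median of 354. The CCR7-high cells ranged from 293 to 3339 with a median of 1332. Of the 51 CCR7-high cells, 49 lay above the CCR7-low median and 34 above the highest CCR7-low cell, and 19 of 60 CCR7-low cells lay below the lowest CCR7-high cell.

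Summed CTNNB1 levels were 1485 CPM (1480 to 1489) in CCR7-high, 394 (392 to 397) in CCR7-low, 321 (318 to 324) in hypoblast-like and 194.9 (193.04 to 196.8) in epiblast-like cells. CCR7-low and hypoblast-like cells overlapped, and the other neighbours did not. CTNNB1 was 3.76-fold higher in CCR7-high than in CCR7-low cells, and 3.55-fold higher between the clusters formed without the listed genes. Trophectoderm-like cells together had 4.74 times the epiblast-like level, between 2.98 and 5.98 times under the alternatives, and 2.88 times the hypoblast-like level. The call against hypoblast-like cells was lost for the median cell, where the hypoblast-like level was 0.568 of the trophectoderm-like one. Since β-catenin is regulated through protein stability, background that these reads do not measure, the values concern transcripts only.

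**Figure D3:**
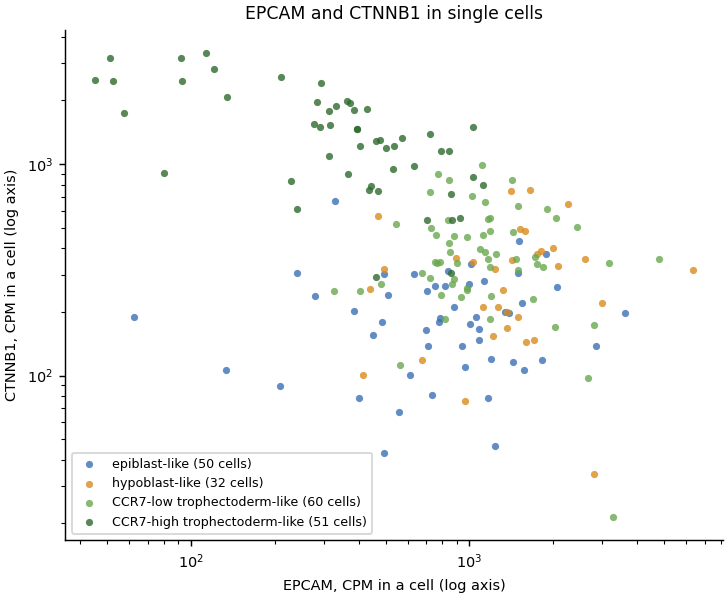
EPCAM (horizontal) and CTNNB1 (vertical) in CPM of single cells, both on log axes, coloured by class; each point is 1 cell. CCR7-high cells (dark green, median 396 CPM of EPCAM and 1332 of CTNNB1) occupy the upper left, and their cells with the lowest EPCAM have high CTNNB1.

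EPCAM and CTNNB1 also ran opposite among the cells of the CCR7-high cluster. Spearman's correlation over its 51 cells was −0.68, Pearson's on the log2 scale −0.63, and Spearman's −0.64 without the 2 cells farthest from the median of EPCAM. Clusters formed without the listed genes gave −0.66 over 39 CCR7-high cells. In CCR7-low cells the value was −0.03 (n = 60), in epiblast-like cells 0.07 and in hypoblast-like cells 0.22. The cells share 1 sample and their preparation, and neither gene followed the total reads of the CCR7-high cells (−0.19 for EPCAM and 0.05 for CTNNB1), so the values are descriptions of these cells.

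Vimentin (VIM, ENSPTRG00000002328), the intermediate filament protein of mesenchymal cells, was found in 21 cells in all. It was read in 9 of 50 epiblast-like cells (18%, 8.58% to 31.4%), 3 of 32 hypoblast-like cells (9.38%, 1.98% to 25.02%), 4 of 60 CCR7-low cells (6.67%, 1.85% to 16.2%) and 5 of 51 CCR7-high cells (9.80%, 3.26% to 21.4%). These intervals overlapped. The summed level of 11.5 CPM (11.02 to 11.9) in epiblast-like cells came from few cells. In hypoblast-like cells 1 cell held 83.05% of the VIM reads, and without it the level there was 0.477 CPM. Among epiblast-like cells a single one held 50.2% of the reads at 462 CPM, others had 159.1, 63.05 and 19.1 CPM, and 41 had none. Against it, hypoblast-like cells with 2.71 CPM (2.43 to 3.01) were 4.23-fold lower and trophectoderm-like cells with 0.577 CPM (0.513 to 0.646) were 19.9-fold lower. Both calls were lost through the 10 CPM minimum when the highest cell of each class was left out, which brought VIM in epiblast-like cells to 5.78 CPM, and when the cells of mixed markers were. By the median over cells VIM was at 0 in every class, which also gives no call. The summed or mean level in epiblast-like cells stayed at least 3.74 times the hypoblast-like and 11.03 times the trophectoderm-like level under the other 16 alternatives.

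Since every cell had CDH1, EPCAM and CTNNB1 at 10 CPM or more, so did the 8 cells with VIM at that level. Of these 8, 6 had FN1, 7 had SNAI1 and 2 had CDH2. In the epiblast-like cell with 462 CPM of VIM, CDH1 was at 203.9 CPM, EPCAM at 1513, CDH2 at 59.8 and FN1 at 28.4. None of the 8 had any of 8 fibroblast or feeder genes at 10 CPM. The cell with 462 CPM of VIM carried 6 epiblast and 6 trophectoderm markers at 10 CPM. Among the 8 cells, 5 were of those with mixed markers, whose part in VIM was tested only by leaving them out.

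Fibronectin (FN1, ENSPTRG00000012892), a glycoprotein of the extracellular matrix, was led by a subset of the hypoblast-like cells. There it ranged from 0 to 1707 CPM with a median of 13.2, 10 of 32 cells had no read and 7 exceeded 100 CPM. Epiblast-like cells ranged from 0 to 672 CPM with a median of 10.97, and 3 of 50 exceeded 100. CCR7-low cells went up to 55.6 CPM with a median of 1.87 and CCR7-high cells up to 99.04 with a median of 1.48. The medians of hypoblast-like and epiblast-like cells were thus close and their spreads overlapped, while 1 hypoblast-like cell exceeded every epiblast-like cell and 7 exceeded every trophectoderm-like cell.

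The summed level of FN1 was 130.6 CPM (128.6 to 132.6) in hypoblast-like, 35.1 (34.4 to 35.95) in epiblast-like and 5.29 (5.09 to 5.49) in trophectoderm-like cells. Hypoblast-like cells had 3.71 times the epiblast-like level, but only 1.20 times by the median cell, which is no call, and 9.83 times once cells of mixed markers were left out. That last value rests on few cells, since 21 of the 32 hypoblast-like cells were mixed and the cell with 1707 CPM was not. Without the highest hypoblast-like cell, which held 34.6% of the reads, the level there was 87.7 CPM. Against trophectoderm-like cells the fold was 24.7, and from 8.20 to 42.5 under the alternatives. Trophectoderm-like cells were 6.65-fold lower than epiblast-like cells, with a call under all 17 alternatives, some of which could not lose it, as for CDH3.

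Within the hypoblast-like class FN1 followed the lineage markers. Its Spearman correlation with the level of these 10 hypoblast markers was 0.79 over 32 cells, against −0.54 for CDH1, −0.57 for CDH3, 0.36 for CTNNB1, 0.10 for EPCAM and −0.01 for SNAI1. FN1 itself ran opposite to CDH1 (−0.55) and together with CTNNB1 (0.53) in these cells, while with CDH3 it stood at −0.42, against 0.53 in epiblast-like cells (n = 50), −0.37 in CCR7-low and 0.21 in CCR7-high cells. CDH1 and EPCAM went together in epiblast-like cells (0.54) and not in hypoblast-like cells (−0.12). FN1 was not tied to SNAI1 in any class, the largest value being −0.21 in epiblast-like cells.

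SNAI1 (ENSPTRG00000050285), which encodes the repressor Snail, was read in most cells of all 4 clusters. Epiblast-like cells ranged from 0 to 48.2 CPM with a median of 10.6, hypoblast-like cells from 0 to 73.1 with a median of 12.03, and CCR7-high cells from 0 to 87.4 with a median of 12.8. CCR7-low cells ranged from 0 to 53.6 with a median of 1.64, and only 8 of 60 reached 10 CPM against 34 of 51 CCR7-high cells. The ranges overlapped throughout, with the CCR7-low cells lowest by their median.

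Summed SNAI1 levels were 21.3 CPM (20.5 to 22.1) in hypoblast-like, 18.8 (18.2 to 19.3) in CCR7-high, 12.4 (11.9 to 12.9) in epiblast-like and 7.28 (6.96 to 7.61) in CCR7-low cells. Neighbours overlapped in the spread over cells except for the CCR7-low class. CCR7-high cells had 2.58 times the CCR7-low level, with a range from 2.24 to 7.74 times. A read was found in 47 of 51 CCR7-high cells (92.2%, 81.1% to 97.8%) and 38 of 60 CCR7-low cells (63.3%, 49.9% to 75.4%), and at equal depth in 91.3% of 46 and 61.1% of 54. In CCR7-low cells SNAI1 went with the total reads of the cell (0.42). Against CDH1, its textbook target, the correlation was 0.35 in epiblast-like, 0.01 in hypoblast-like, −0.32 in CCR7-low and −0.11 in CCR7-high cells.

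SNAI2 (ENSPTRG00000020235), which encodes Slug, was all but absent. It had 3 reads in 1 epiblast-like cell and 43 reads in 1 CCR7-high cell, at 19.2 CPM there. No read was found in 32 hypoblast-like and 60 CCR7-low cells, which, counted as 3 cells, allows shares of cells with a read of up to 9.38% and 5%. ZEB2 (ENSPTRG00000012513), another repressor of CDH1, was found in 5 of 50 (3.33% to 21.8%) among the epiblast-like cells, 4 of 32 (3.51% to 28.99%) among the hypoblast-like ones, 1 of 60 CCR7-low cells and none of 51 CCR7-high cells, which by the same limit allows up to 5.88%. Its highest cells reached 9.13 CPM in epiblast-like and 9.09 in hypoblast-like cells, so none came to 10 CPM. Neither gene was assessed in a comparison.

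**Figure D4:**
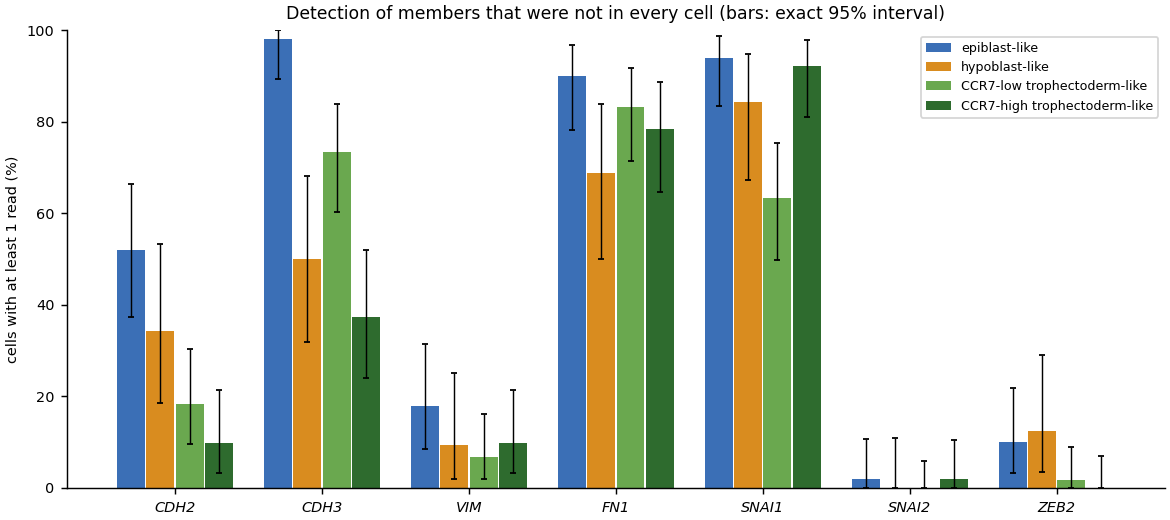
Percentage of cells with at least 1 read of the 7 members that were not found in every cell, by class; bars on the columns are exact Clopper-Pearson 95% intervals, which cover counting error only. CDH3 falls from 98% of epiblast-like to 37.3% of CCR7-high cells, and SNAI2 and ZEB2 stay at or below 12.5%.

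At equal depth the shares of CDH3 and CDH2 kept their order over the 4 clusters. Each cell was thinned to 2532312 reads, which left 48 epiblast-like, 25 hypoblast-like, 54 CCR7-low and 46 CCR7-high cells and dropped 20 shallower ones. CDH3 was then read in 95.8%, 48%, 72.2% and 34.8% of these cells and CDH2 in 24 of 48, 28%, 20.4% and 8.70%. Unthinned shares of CDH3 were 98%, 16 of 32, 73.3% and 37.3%. At least 1 read of FN1 was found in a smaller share of hypoblast-like cells, in 64% after thinning and 68.8% (49.99% to 83.9%) before, than in epiblast-like cells with 89.6% and 90% (78.2% to 96.7%). These intervals overlapped, and at 10 CPM the order was the opposite, with 18 of 32 hypoblast-like and 26 of 50 epiblast-like cells. The trophectoderm-like clusters changed places in FN1, with 83.3% of CCR7-low and 78.4% of CCR7-high cells before thinning and 70.4% and 73.9% after it.

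Counted per cell, several mesenchymal transcripts came together in a minority of each class other than CCR7-low cells, and in no CCR7-low cell. Of CDH2, VIM, FN1, SNAI1, SNAI2 and ZEB2, none was at 10 CPM in 6 of 50 epiblast-like, 6 of 32 hypoblast-like, 45 of 60 CCR7-low and 15 of 51 CCR7-high cells. Exactly 1 was present in 25, 12, 15 and 29 cells and exactly 2 in 16, 11, 0 and 6. A count of 3 was reached by 1, 3, 0 and 1 cells, and 4 only by 2 epiblast-like cells. The 2 cells with 4 were those with the highest VIM, and both had CDH2, FN1 and SNAI1 beside it.

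Lists for 4 other lineages gave 0 cells with 3 or more genes at 10 CPM in each class. They held 8 fibroblast or feeder genes, 8 of extraembryonic mesoderm, 6 of primitive streak or mesoderm and 6 of amnion. The summed CPM of the fibroblast list ran from 0 to 147.2 in epiblast-like, 0 to 41.4 in hypoblast-like and 0 to 79.3 in trophectoderm-like cells, with medians of 4.30, 0 and 1.91, and its leading gene was THY1 at 28.2 CPM in epiblast-like cells. The extraembryonic mesoderm list reached 1126 CPM in CCR7-low cells, with a median of 44.7, and was led in every class by HAND1, which trophoblast also expresses, at 96.04 CPM in CCR7-low, 27.7 in CCR7-high, 15.3 in hypoblast-like and 11.5 in epiblast-like cells. The amnion list was led in trophectoderm-like cells by VTCN1 at 34.8 CPM, a gene of trophoblast as well, and in epiblast-like cells by ISL1 at 14.7 CPM. The part of these lists in the members' levels was not tested. In hypoblast-like cells COL1A2, COL3A1, DCN, LUM and PDGFRB were at 0, and the other 3 genes of that list, THY1 (2.41 CPM), COL1A1 (0.576 CPM) and COL6A3, had reads. The primitive streak list was led by MIXL1 at 2.32 CPM in epiblast-like cells and MESP1 at 2.33 CPM in trophectoderm-like cells, and TBXT, its defining marker, was at 0 in hypoblast-like and CCR7-low cells and had reads in epiblast-like and CCR7-high cells.

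The genes whose levels went most closely with each member over all cells were taken from 9531 identifiers with a symbol and a read in at least 50% of cells. CTNNB1 had the closest partners, CDC42EP1, an effector of CDC42 (Spearman 0.82), GRAMD2A (0.80) and VGLL1, a TEAD cofactor of trophectoderm (0.80). Within CCR7-high cells these values were 0.57, 0.43 and 0.52, and CDC42EP1 had 0.13 within hypoblast-like cells. EPCAM went with the protease inhibitor gene SPINT2 (0.64), ENPP1 (0.63) and SPTBN1 (0.63), and within CCR7-high cells SPINT2 dropped to 0.02 while ENPP1 and SPTBN1 stayed at 0.64 and 0.68. Within hypoblast-like cells the order was the reverse, with 0.84 for SPINT2, 0.14 for ENPP1 and −0.07 for SPTBN1.

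CDH1 went with SLC44A2 (0.56), the desmoplakin gene DSP (0.54) and CERS5 (0.52), and DSP kept 0.43 to 0.62 within every cluster. CDH3 went with HINT1 (0.64). FN1 went with the proprotein convertase gene PCSK5 (0.50), FOXP1 (0.45) and MAGED4 (0.42), and SNAI1 with PSMC4 (0.43), EFHD2 (0.41) and SMAD7 (0.40), an inhibitor of TGF-β signaling. MAGED4 has a near copy between which reads may be split, so its value is uncertain. These correlations run over cells of 1 sample and of all classes together.

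The remaining genes of the pathway were described from 7 lists. Of all assessed identifiers, 5.67% were higher and 11.1% lower in hypoblast-like over epiblast-like cells. The shares were 9.95% and 17.3% in trophectoderm-like over epiblast-like cells and 11.2% and 9.91% in hypoblast-like over trophectoderm-like cells. In CCR7-high over CCR7-low cells they were 7.07% and 5.08%. Counts from the lists are given as a description beside these shares. Among 19 other cadherins and protocadherins, 5 were assessed in hypoblast-like over epiblast-like cells, and 1 was higher and 3 lower, with a median log2 fold of −1.39 against −0.12 for all identifiers. The mesenchymal cadherin CDH11 had 33.2 CPM in epiblast-like, 3.54 in hypoblast-like and 0.349 in trophectoderm-like cells, so that it was 9.38-fold and 95.3-fold lower in the latter classes. CELSR2 was 4.62-fold lower and PCDH1 2.01-fold higher in hypoblast-like cells. In trophectoderm-like over epiblast-like cells 1 of 6 was higher (CDH24, 2.18-fold) and 3 were lower, among them the endothelial cadherin CDH5, 5.07-fold. CDH11, CELSR2 and CDH5 reached 10 CPM only in epiblast-like cells, so the counts and the median of this list are shaped by the minimum. In hypoblast-like over trophectoderm-like cells 0 of 3 were higher and 2 were lower, FAT1 2.78-fold and CDH24 2.33-fold. PCDH1 with 3.37 CPM was 11.3-fold lower in CCR7-high than in CCR7-low cells and FAT1 2.15-fold lower, 2 of 3 assessed.

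Among 13 partners at the adherens junction (catenins, nectins and their linkers), 1 of 9 assessed was lower in hypoblast-like than in epiblast-like cells (NECTIN1, 2.20-fold), and 1 of 10 was higher in trophectoderm-like than in epiblast-like cells (NECTIN4, 6.05-fold). NECTIN4, a nectin of epithelia and placenta, stood at 108.6 CPM in CCR7-high and 14.3 in CCR7-low cells, a 7.57-fold difference. Hypoblast-like cells had 2 of 10 lower than trophectoderm-like cells, NECTIN4 8.83-fold and NECTIN1 3.22-fold. In CCR7-high over CCR7-low cells VEZT was also higher (2.09-fold) and ADAM10, the protease that sheds E-cadherin, lower (2.41-fold), 2 and 1 of 10.

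Of 10 desmosomal genes, only the desmosomal cadherins DSG3, DSC2 and DSC3 were called in any comparison, and the cadherin DSG2 was called in none. DSG3 was 3.83-fold lower in hypoblast-like than in epiblast-like cells, 1 of 8 assessed, and 2.73-fold lower in CCR7-high than in CCR7-low cells, 1 of 9. In trophectoderm-like over epiblast-like cells DSC3 (14.4-fold) and DSC2 (5.63-fold) were higher, 2 of 9. Against trophectoderm-like cells hypoblast-like cells were lower in 3 of 9, DSC3 15.1-fold and DSC2 3.56-fold among them.

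**Figure D5:**
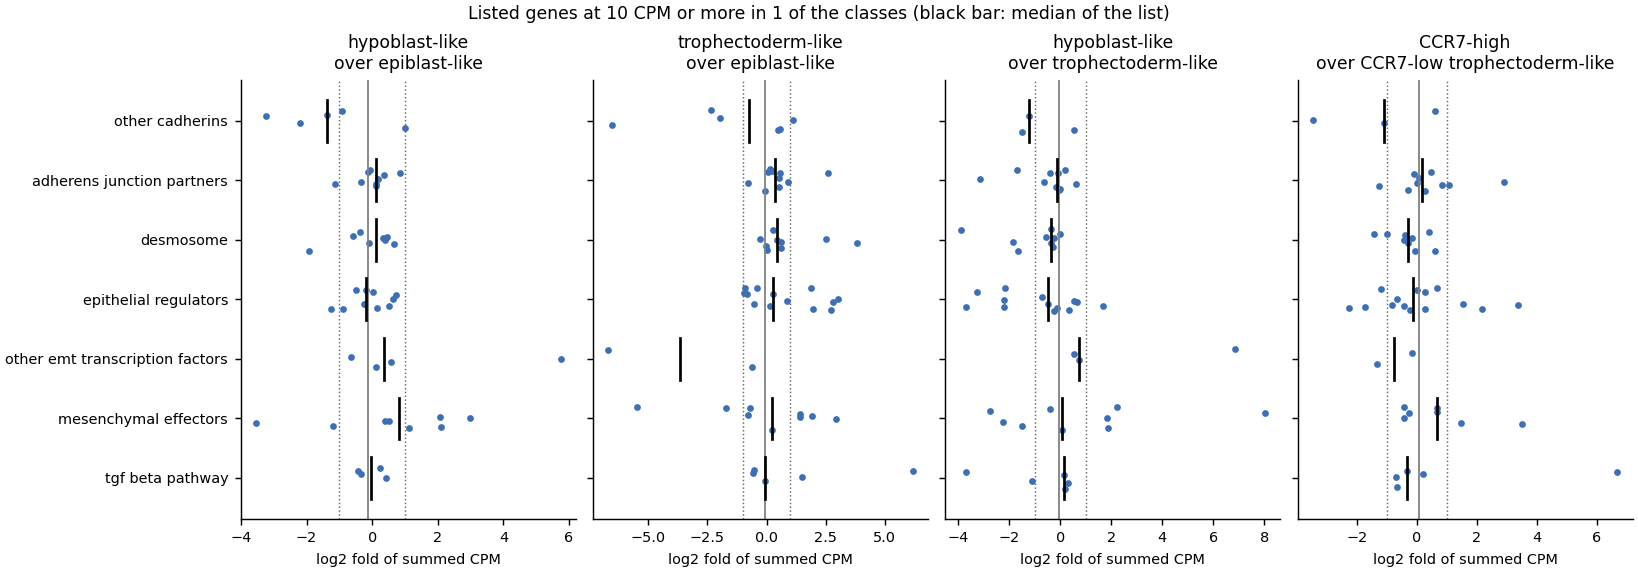
Log2 fold of summed CPM of the genes of 7 lists (rows) in 4 comparisons; each point is a gene at 10 CPM or more in 1 of the classes, black bars are list medians, dotted lines mark 2-fold and the grey line is the median of all assessed identifiers. Most genes of the junction and desmosome lists lie inside the dotted lines, while GSC lies far to the right among the other transition factors in the comparisons of hypoblast-like cells.

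Among 14 epithelial regulators, 5 of 13 assessed were higher and 0 lower in trophectoderm-like than in epiblast-like cells, with a median log2 fold of 0.27 against −0.08. GRHL2 (8.19-fold) and GRHL1 (7.01-fold), which encode grainyhead factors that activate epithelial genes including CDH1, led them. In hypoblast-like over epiblast-like cells 0 of 11 were higher and the splicing regulator gene ESRP1 was lower, 2.39-fold. Hypoblast-like over trophectoderm-like cells had 1 of 13 higher (OVOL2, 3.20-fold) and 5 lower, GRHL1 12.9-fold among them.

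The trophectoderm-like clusters differed in both directions in this list, with 3 higher and 3 lower of 14. OVOL1 had 259.4 CPM in CCR7-high and 25.1 in CCR7-low cells (10.4-fold), GRHL3 was 4.52-fold higher, OVOL2 was 4.81-fold lower and KLF5 3.34-fold lower. OVOL1 and OVOL2, related zinc finger repressors known to hold back ZEB and SNAI genes, thus stood in opposite order between the clusters. The list median of −0.12 lay below that of all identifiers, 0.06.

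Other transition factors were mostly below 10 CPM. Of 11 with an identifier, 4 were assessed in hypoblast-like over epiblast-like cells and 1 was higher, with a median log2 fold of 0.35. This was GSC, a homeobox gene of the organizer and of endoderm, at 39.2 CPM in hypoblast-like, 0.720 in epiblast-like and 0.331 in trophectoderm-like cells, 54.4-fold and 118.3-fold. ZEB1 was at 0.04 CPM in epiblast-like and 0 in hypoblast-like cells, and PRRX1 had no read in any class. TCF4 was 2.56-fold lower in CCR7-high than in CCR7-low cells (1 of 2 assessed). Hypoblast-like over trophectoderm-like cells had 1 of 3 higher, again GSC.

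Of 22 mesenchymal effector genes with an identifier, 8 were assessed in hypoblast-like over epiblast-like cells, and 4 were higher and 2 lower (median log2 fold 0.81). CALD1, an actin-binding protein, was 7.87-fold higher and SPARC, a matrix protein also secreted by extraembryonic endoderm, 4.26-fold higher at 925 CPM, while THY1 was 11.7-fold and TPM2 2.30-fold lower. In trophectoderm-like over epiblast-like cells 4 of 9 were higher and 2 lower (median 0.21). CALD1 (7.55-fold) and TPM1 (3.74-fold) led the former, and THY1 (44.7-fold) and COL5A1 (3.30-fold) were the latter. CALD1, TPM1 and TPM2 act on actin filaments in epithelial cells too, so the list holds genes that are not particular to mesenchyme.

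Hypoblast-like over trophectoderm-like cells had 4 of 9 effectors higher and 3 lower. CD44 was higher, with 12.2 CPM against 0.0368, and COL5A1 4.71-fold higher, whereas MMP14 was 4.69-fold lower. In CCR7-high over CCR7-low cells 2 of 7 were higher, TPM1 (2.79-fold) among them, and 0 were lower. Among 9 genes of the TGF-β pathway 0 of 4 assessed were called between hypoblast-like and epiblast-like cells. TGFBR2, the type II receptor, had 38.8 CPM in CCR7-high and 0.365 in CCR7-low cells, 106.3-fold, and was the 1 gene of 5 called there. With the coreceptor TGFBR3 (2.84-fold) it made up the 2 of 5 higher in trophectoderm-like than in epiblast-like cells, and both were lower in hypoblast-like than in trophectoderm-like cells, 13.01-fold and 2.14-fold.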

How the data were processed

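Single cells of day 4 chimpanzee blastoids were analysed from the whole-number read counts per Ensembl gene that the authors deposited for 217 cells and 33729 identifiers, without normalization. The paper's methods give trimming with FastP, alignment with STAR to the chimpanzee genome and counting per gene. The submitters' processing notes instead list Trim Galore 0.6.6, STAR 2.7.7a and GRCh38, whose roles are not given, while the identifiers are chimpanzee ones. SMART-seq2 does not mark strand, so reads of a gene and of an overlapping antisense gene cannot be told apart. No quality measure other than reads and detected genes per cell was used.

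Symbols were attached for 18783 identifiers from a table of names. Genome positions and the promoter count of a SNAI and ZEB motif planned beforehand were not analysed here. Cells with under 4000 reads or 8000 detected genes were left out, and 193 remained, which is not the number the study kept with the same stated filter. For clustering, genes read in under 20 cells were dropped, and Scanpy 1.11.5 normalized and log-transformed the counts and computed 50 principal components and 30 neighbours, and leidenalg 0.10.2 clustered the cells at a resolution of 1 with seed 0. Each cluster took the name of the marker list with the highest mean standardized level in its cells. The number of cells with at least 3 markers was counted beside it and was not a condition of the name. No 2 cells had identical counts.

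CPM, exact intervals, shares, balances with a pseudocount of 1 CPM and Spearman correlations were computed with Python 3.11.15, pandas 2.3.3 and scipy 1.17.1, TMM factors with edgeR 4.0.16, and figures with matplotlib 3.10.9. Shares were compared after thinning to 2532312 reads, the 10th percentile. The named genes were the 10 members, in each list the 2 called genes with the largest fold in each direction, and the 3 closest partners of each member read in at least 50% of cells. Listed genes were 100, of which TWIST2 and COL6A1 had no identifier. A few genes that this rule names are not reported here. ZEB1, PRRX1, TBXT and the markers at 0 were named after their values were seen. The members and lists were chosen with earlier results of these data known.

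The rule of 2-fold and 10 CPM was checked on simulated cells that had the totals and the spread of real hypoblast-like and epiblast-like cells. It recovered 99% of 200 genes changed 4-fold and 100% of 200 changed 10-fold, and called 1.36% of genes when none was changed. The changed genes were drawn only from genes above the 10 CPM minimum, and no change near 2-fold was simulated. The recovery rates therefore do not cover members near or under that minimum, such as VIM, SNAI1 and CDH2. Alternatives covered the cell filter, resolution, neighbours, genes clustered, mixed cells, depth, the summary over cells, scaling, fold, minimum level, detection threshold and pseudocount, with the highest cell left out added after seeing the data.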

Additional observations from a re-analysis of the deposited data

Results flagged for a closer look

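The 24 cells that the filter left out, none of which enters a comparison, held reads of 6 members in a larger share of cells than the 12.5% that a count of 0 in 24 cells allows. A read was found in 95.8% of them for CDH1, 95.8% for CTNNB1, 91.7% for EPCAM, 50% for CDH3, 33.3% for SNAI1 and 29.2% for FN1. Shares of CDH1, EPCAM and CTNNB1 stayed under the full detection in the cells that passed, and the median of total reads was 1660767 against 3960857. The highest SNAI1 level of any cell was among them, with 564 CPM from 626 reads in a cell of 1110270 reads and 6008 detected genes, against at most 87.4 CPM in the cells that passed. VIM was found in 2 of the 24 cells at up to 144.4 CPM. The part of cell quality in these values was not tested.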

How the results depend on the processing

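No paired analysis was possible because all cells form 1 sample and no test was computed, and for the same reason no replicate could be left out. No called fold of a member changed direction under the alternatives run. Uncalled differences in level turned for CDH1, CDH2, FN1, SNAI1, SNAI2 and VIM under some of them. VIM went from 0.169 CPM in CCR7-low and 1.01 in CCR7-high cells to 0.665 and 0.430 at a resolution of 0.5, SNAI2 from 0 and 0.171 to 0.130 and 0 with 7000 detected genes, and CDH2 from 5.27 CPM in epiblast-like and 4.76 in hypoblast-like cells to 4.87 and 4.93 with TMM. Of the recalculated folds of called members 25 lost their call, and the 2 of VIM had no fold by the median over cells, which was 0 in every class, and so no call either. The others kept it, some under a looser rule or with unchanged classes, where it could not be lost. Counts of members called kept within 1.5 times the main count in 100 cases and moved in 32, and the causes were not tested unless the alternative's own construction names them. Levels moved by more than their counting interval in 292 cases and did not in 268, shares of cells in 49 and 411, and correlations between members, recalculated at equal depth or within a class, moved by over 0.2 in 29 and did not in 46.

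Members higher in hypoblast-like over trophectoderm-like cells, 2 at the main settings, were 1 with 7000 detected genes, at equal depth, by the median or mean over cells and at a fold of 4, but 4 at a fold of 1.5 or a minimum of 1 CPM and 5 with no minimum. Members lower in CCR7-high over CCR7-low cells, 2 at the main settings, were 1 with 7000 or 9000 detected genes, at a resolution of 0.5, with the listed genes left out of the clustering, without mixed cells, by the median and without the highest cell of each class, 0 at a fold of 4 and 4 with no minimum. Wherever 1 remained, the call of CDH3 was lost. Members higher in hypoblast-like over epiblast-like cells, 1 at the main settings, were 2 without mixed cells (EPCAM was added) and with no minimum, 4 at a fold of 1.5, and 0 by the median and at a fold of 4. Those lower there, 2 at the main settings, were 1 without mixed cells, by the median and without the highest cell, each time without VIM. Members lower in hypoblast-like over trophectoderm-like cells, 1 at the main settings, were 0 by the median and at a fold of 4, and 2 with no minimum. Those higher in CCR7-high over CCR7-low cells, 2 at the main settings, were 0 at a fold of 4 and 4 with no minimum. With no minimum, 2 members in place of 1 were higher and 5 in place of 3 lower in trophectoderm-like over epiblast-like cells. For CDH3 minus CDH1 the difference of medians between trophectoderm-like and epiblast-like cells was −4.37, and −2.12 with a pseudocount of 10 CPM, and that between hypoblast-like and epiblast-like cells was −3.32 and −1.39.

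TMM and median-of-ratios scaling lost and added no call of a member. TMM moved the median log2 fold of all assessed identifiers from −0.12 to 0.05 in hypoblast-like over epiblast-like cells and from −0.08 to 0.10 in trophectoderm-like over epiblast-like cells, and the share of higher among called identifiers from 33.9% to 46.2% and from 36.6% to 47.3%. A resolution of 1.5 gave 6 clusters and 15 neighbours gave 5, which left no pair of trophectoderm-like clusters to compare. The depth limits statements on CDH2, VIM, SNAI2 and ZEB2, whose reads came from few cells, and with 1 sample no value measures the spread between blastoids or lines.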
